A study of Homo sapiens with 6 samples.

Results

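The 6 genes encoding insulin-like growth factor (IGF)-binding proteins, IGFBP2 to IGFBP7, and the 2 genes encoding the IGF receptors, IGF1R and IGF2R, were followed in MCF10DCIS.com cells (hereafter MCF10DCIS), a basal-type human breast cancer line of the MCF10A lineage. The genes were taken by symbol from the deposited table, and all 8 were found among its 26334 genes. Poly-A RNA was sequenced from 3 control (shLuc) and 3 WDR5-silenced (shWDR5) libraries. WDR5 is the core subunit of the complexes that methylate histone H3 on lysine 4. Control cells carried the pRSI-U6-shLuc-UbiC-TagRFP-2A-Puro lentiviral vector, with a hairpin against luciferase, and silenced cells carried pRSI-U6-shWDR5-UbiC-TagRFP-2A-Puro, so that both groups carried genes for a red fluorescent protein and for puromycin resistance. Both groups were selected with puromycin at 3 µg/ml and grown in 5% horse serum. The hairpins against WDR5 are not named in the labels, and the study's methods describe pooled WDR5 shRNAs. The data come from 1 cell line in culture, and nothing in the labels states that the 3 libraries of a group came from separate infections, so the p-values measure the spread between these libraries.

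IGF1 and IGF2 are growth factors that act through IGF1R, a receptor tyrosine kinase that feeds the PI3K-AKT and MAPK routes. IGF2R, the cation-independent mannose 6-phosphate receptor, has no kinase: it removes IGF2 from the cell surface and carries newly made enzymes to the lysosome. IGFBPs are secreted proteins that hold IGFs away from IGF1R or deliver them to it, and several also act on the matrix, on integrins or in the nucleus without IGFs. In the mammary gland IGFBP5 is known from involution, and IGFBP3 from growth arrest and TGFβ signalling.

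The shLuc libraries held 38218108 to 48500509 counts and the shWDR5 libraries 46097058 to 57640167, and 16117 genes passed the filter on low counts, the 8 IGF genes among them, each at or above the filter's cutoff of 0.213 CPM (counts scaled by library size) in all 6 libraries. WDR5 itself was measured at 16.5, 15.2 and 16.1 RPKM (reads scaled by gene length and by normalised library size) in shLuc and at 7.34, 7.65 and 6.52 RPKM in shWDR5, 2.22-fold lower (log2FC −1.15, SE 0.07, adjusted p = 8.67e-07), as the labels state. The defining markers of basal mammary epithelium were all present: 8 of 8 were over 1 RPKM, with summed levels of 3297 to 3639 RPKM in shLuc and 5541 to 6274 RPKM in shWDR5, and 7 of the 8 were higher in shWDR5. The part of this shift in the IGF gene results was not tested. Among luminal markers 6 of 8 were over 1 RPKM, with sums of 2019 to 2134 RPKM in shLuc and 1868 to 2011 RPKM in shWDR5, and 3 of the 7 tested were lower and 1 higher. CDH1 (E-cadherin) was 2.05-fold lower, EPCAM and GATA3 were the other two that fell, KRT19 was 3.57-fold higher from a mean of 0.892 RPKM, and PGR had at most 2 reads in any library. The part of these changes in the IGF gene results was not tested either. Of the fibroblast markers 2 of 8 were over 1 RPKM and LUM had no read, with sums of 16.5 to 19.6 RPKM in shLuc and 13.4 to 13.9 RPKM in shWDR5. Of 5 endothelial markers 1 was over 1 RPKM (sums of 1.76 to 1.88 and 1.17 to 1.31 RPKM), and of 5 leukocyte markers 2 were (7.37 to 8.71 and 7.33 to 8.37 RPKM), with CD3E at 0 reads throughout. In bulk RNA, fewer cells that make a transcript and less of it per cell cannot be told apart.

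All 8 IGF genes changed after WDR5 silencing: 7 rose, with IGFBP3, IGFBP5 and IGFBP4 rising more than 2-fold, and IGFBP2 alone fell. Calls were made at an adjusted p below 0.05 in edgeR's quasi-likelihood test, over all genes tested. Of the 16117 genes tested, 1528 were called with a change of at least 2-fold in either direction. Much of the transcriptome differed between the groups, since 56.5% of all genes tested were called, 26.6% as higher and 29.9% as lower. A call by itself is therefore common here. Where an absolute log2FC of at least 0.6 and a mean level above 0.5 RPKM in at least 1 group were also required, 5 of the 8 genes were kept (IGFBP2, IGFBP3, IGFBP4, IGFBP5 and IGFBP7) against 18.4% of all genes tested. IGFBP5 met that level in shWDR5 only, and the other 4 met it in both groups. The 3 shLuc and 3 shWDR5 libraries did not overlap for any of the 8 genes, which was also true of 62.3% of all genes tested. The median log2FC of the 8 genes was 0.55, beside −0.01 over all genes tested.

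**Figure D1:**
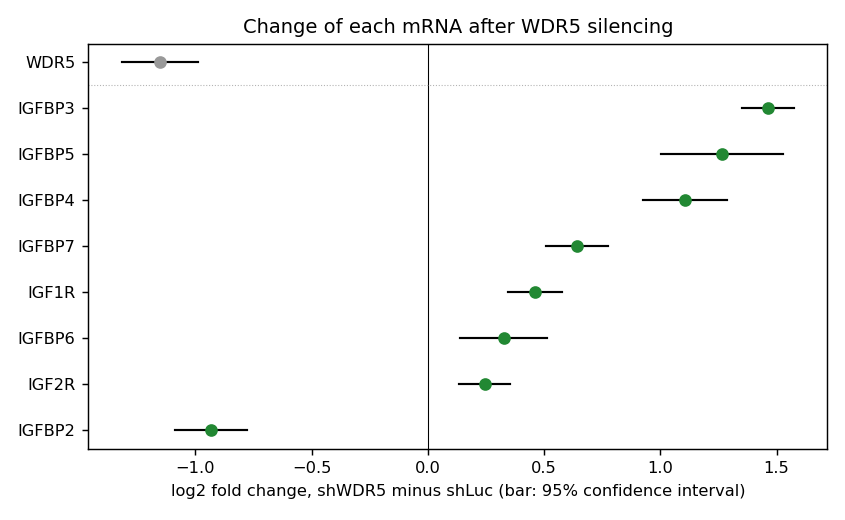
The log2 fold change (x axis, shWDR5 minus shLuc) of the 8 IGF genes and, above the dotted line, of WDR5, with bars for the 95% confidence interval. IGFBP3 lies farthest to the right at 1.46 and IGFBP2 is the one IGF gene left of 0, at −0.93.

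IGFBP3, the main IGF carrier of blood and a protein that also slows growth without binding IGF, gave both the highest level and the largest change of the family. Its levels were 93.0, 93.9 and 98.6 RPKM in the shLuc libraries and 262, 259 and 266 RPKM in the shWDR5 libraries. The libraries of each group lay close together and the groups were far apart. The change was 2.76-fold (log2FC 1.46, SE 0.05, 95% confidence interval 1.35 to 1.57, adjusted p = 3.89e-08). Of the 16117 genes tested, 443 rose by as much or more, counting IGFBP3, and its place among them by mean RPKM moved from 618 to 210.

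IGFBP5, which binds matrix and is cut by several proteases, was close to silent in the control cells. Its reads numbered 72, 60 and 53 in shLuc and 169, 185 and 159 in shWDR5, or 0.233, 0.248 and 0.210 RPKM against 0.585, 0.522 and 0.562 RPKM. Every silenced library was above every control library. The rise was 2.40-fold (log2FC 1.27, SE 0.12, interval 1.00 to 1.53, adjusted p = 1.02e-05), and the level reached was still the lowest of the 8 genes. In cells of patient-derived xenografts the paper reports the opposite direction, naming IGFBP5 among wound healing and migration genes that WDR5 silencing lowered. The xenograft data were not used here.

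IGFBP4, an inhibitor of IGF action that is inactivated when the protease PAPPA cuts it, was at 7.54, 7.22 and 6.49 RPKM in shLuc and at 16.5, 14.4 and 14.9 RPKM in shWDR5. The lowest silenced library was above the highest control by about the control level itself. The rise was 2.15-fold (log2FC 1.11, SE 0.08, interval 0.93 to 1.29, adjusted p = 1.98e-06).

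IGFBP7 binds IGFs only weakly and is known as an insulin-binding and vascular matrix protein. It was at 18.3, 17.5 and 18.3 RPKM in shLuc and at 28.5, 28.3 and 27.5 RPKM in shWDR5, a 1.56-fold rise (log2FC 0.64, SE 0.06, interval 0.51 to 0.77, adjusted p = 9.32e-06). IGFBP6, which prefers IGF2 over IGF1, showed the smallest change among the binding proteins, from 7.33, 7.53 and 7.39 RPKM to 10.1, 8.76 and 8.99 RPKM (1.25-fold, log2FC 0.33, SE 0.08, interval 0.14 to 0.51, adjusted p = 0.00692). The shWDR5 libraries were more scattered for IGFBP6 than the shLuc libraries, with replicate 1 the highest.

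IGFBP2, which carries an integrin-binding RGD sequence and is often high in growing tumours, went the other way. It was at 47.6, 42.4 and 43.4 RPKM in shLuc and at 23.9, 24.3 and 21.7 RPKM in shWDR5, so that every silenced library was below every control library. The level was 1.91-fold lower (log2FC −0.93, SE 0.07, interval −1.09 to −0.78, adjusted p = 2.33e-06). Of all genes tested, 806 fell by as much or more, counting IGFBP2.

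**Figure D2:**
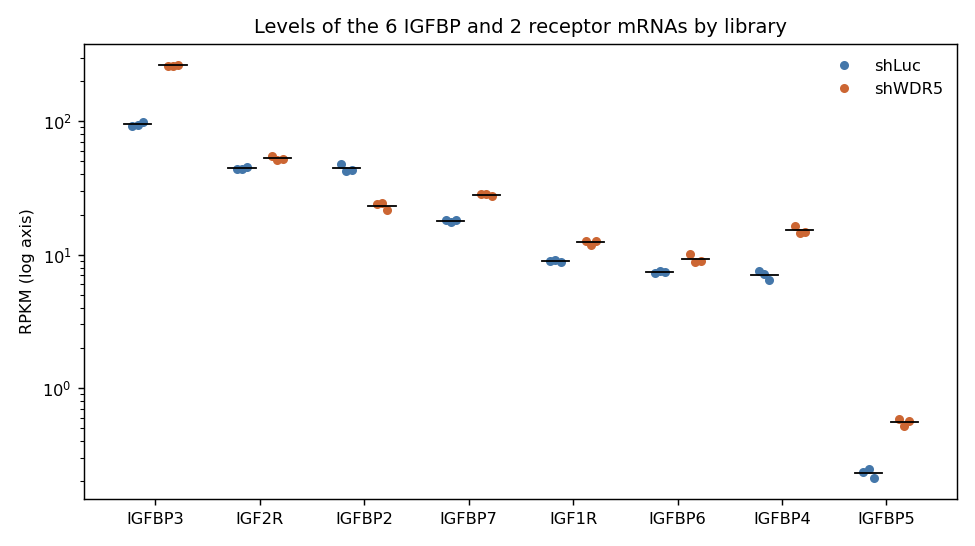
Level of each of the 8 mRNAs in RPKM (y axis, log scale) in the 3 shLuc (blue) and 3 shWDR5 (orange) libraries, with a black line at each group's mean and genes ordered by the control level. IGFBP3 is the highest gene in both groups, IGFBP5 the lowest, and IGFBP2 is the one gene whose orange points lie below the blue ones.

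The upstream sequences of the 3 genes that rose more than 2-fold and of IGFBP2 are shown because these are the genes with the largest changes in each direction. RefSeq starts of build GRCh38.p14 were matched by symbol for 7 of the 8 genes with 9 listed starts. No start was matched for IGFBP7, so its upstream sequence was not searched. The deposited table uses another build, hg19, so these coordinates are not to be set beside the deposited ones. The 250 bases before the start are printed 5′ to 3′ on the gene's strand, and capitals mark a TATA box (TATAAA) or a GC box (GGGCGG) on either strand. IGFBP2 has 3 listed starts, and the one shown lies 62129 bases from the IGFBP5 start, against 62145 bases between the 2 starts in the deposited table.
IGFBP3, chr7:45921273-45921522, minus strand: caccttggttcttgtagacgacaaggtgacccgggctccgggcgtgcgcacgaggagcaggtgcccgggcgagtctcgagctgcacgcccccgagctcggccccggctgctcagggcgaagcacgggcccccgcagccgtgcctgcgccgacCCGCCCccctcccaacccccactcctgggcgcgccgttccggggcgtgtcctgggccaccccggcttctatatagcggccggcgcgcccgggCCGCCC
IGFBP5, chr2:216695550-216695799, minus strand: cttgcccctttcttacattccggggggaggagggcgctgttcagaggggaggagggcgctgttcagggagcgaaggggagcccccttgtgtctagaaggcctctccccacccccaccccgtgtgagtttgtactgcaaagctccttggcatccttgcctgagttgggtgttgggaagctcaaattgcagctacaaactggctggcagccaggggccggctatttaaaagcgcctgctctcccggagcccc
IGFBP4, chr17:40443200-40443449, plus strand: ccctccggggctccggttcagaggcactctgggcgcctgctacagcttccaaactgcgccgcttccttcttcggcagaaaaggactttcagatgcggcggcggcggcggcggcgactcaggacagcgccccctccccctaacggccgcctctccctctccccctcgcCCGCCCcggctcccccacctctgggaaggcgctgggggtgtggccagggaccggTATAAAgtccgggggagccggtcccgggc
IGFBP2, chr2:216633170-216633419, plus strand: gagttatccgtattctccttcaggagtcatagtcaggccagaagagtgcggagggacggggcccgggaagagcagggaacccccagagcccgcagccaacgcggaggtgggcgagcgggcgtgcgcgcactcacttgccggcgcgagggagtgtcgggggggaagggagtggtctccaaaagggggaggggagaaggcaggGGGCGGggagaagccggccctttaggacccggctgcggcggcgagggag

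The TATAAA letters were found in 1 of these 4 windows, that of IGFBP4, at 29 bases before the start. They occur in the same window of 10.7% of the 35116 starts in the table. Only these exact letters were searched for. Other stretches of A and T alone, such as tatata before IGFBP3 and tatttaaaa before IGFBP5, were left unmarked. GGGCGG was found 2 times before IGFBP3, 1 time each before IGFBP4 and IGFBP2 and not before IGFBP5, and it occurs before 42.6% of all starts. Among the other IGF genes, the window of IGF2R held GGGCGG 6 times, that of IGF1R 2 times and that of IGFBP6 1 time. The E-box CACGTG, bound by MYC and MAX, was found only before IGF2R, with 3 matches, and occurs before 6.34% of all starts. Neither the SMAD element CAGACA (13.6% of all starts) nor the AP-1 site TGACTCA (4.2%) was found before any of the 7 genes, and CCAAT (32.0%) was found only at another of the IGFBP2 starts. The windows of the risers IGFBP3, IGFBP4 and IGFBP5 were 76.0%, 71.6% and 61.2% G and C, that of IGFBP2 was 69.2%, and the median of all starts was 58.0%. These matches describe sequence, not binding.

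On the per-length scale the 6 binding protein mRNAs summed to 174, 169 and 174 RPKM in shLuc and to 342, 336 and 340 RPKM in shWDR5. The pool was 1.97-fold larger in shWDR5 (172 ± 3.09 against 339 ± 2.96 RPKM, mean ± SD, n = 3 each; two-sided exact permutation p = 0.1, the smallest that 3 against 3 libraries allow). IGFBP3 alone differed between the groups by more than the other 5 mRNAs summed to, so that the pool had to separate them. The p of the pool therefore adds nothing to the result of IGFBP3. That mRNA made up 53.4, 55.6 and 56.5% of the pool in shLuc and 76.7, 77.3 and 78.3% in shWDR5. IGFBP2 went from 27.4, 25.1 and 24.9% to 6.99, 7.25 and 6.38%. Without IGFBP3, a sum added after the values were seen, the other 5 mRNAs came to 77.2 ± 3.28 RPKM in shLuc and 76.5 ± 3.01 RPKM in shWDR5 (n = 3 each, two-sided exact permutation p = 0.8), since the fall of IGFBP2 was about as large in RPKM as the rises of the other 4 together. The shares of IGFBP7 and IGFBP6 shrank even though both genes rose, from a mean of 10.5% to 8.30% and from 4.30% to 2.74%, and IGFBP4 and IGFBP5 kept small shares (4.11% to 4.50% and 0.134% to 0.164%).

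**Figure D3:**
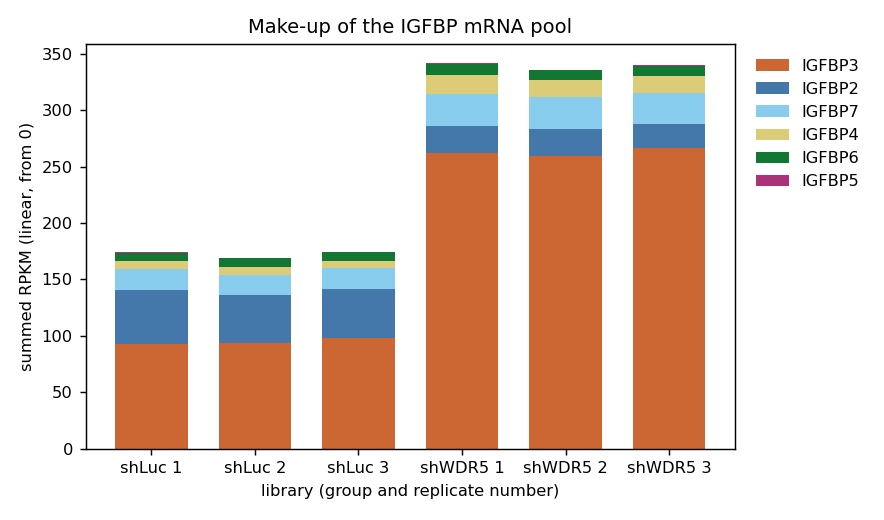
Stacked RPKM of the 6 IGFBP mRNAs (y axis, linear from 0) in each library (x axis, group and replicate number). The 3 shLuc bars reach 169 to 174 RPKM and the 3 shWDR5 bars 336 to 342 RPKM, with IGFBP3 (orange) filling most of the added height and IGFBP2 (blue) the one segment that is clearly thinner.

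Ordered by level in the control cells, IGFBP3 came first, followed by IGF2R and IGFBP2, IGFBP7, IGF1R, IGFBP6, IGFBP4 and IGFBP5. The libraries of IGF2R and IGFBP2 overlapped in that order (44.2 to 45.5 and 42.4 to 47.6 RPKM), as did those of IGFBP6 and IGFBP4 (7.33 to 7.53 and 6.49 to 7.54 RPKM), and no other neighbours did. In shWDR5 the order was IGFBP3, IGF2R, IGFBP7, IGFBP2, IGFBP4, IGF1R, IGFBP6 and IGFBP5, with no overlap between neighbours. IGFBP2 had thus dropped below IGFBP7, and IGFBP4 had moved above both IGF1R and IGFBP6. The IGFBP3 to IGFBP2 ratio was 1.95, 2.21 and 2.27 in shLuc and 11.0, 10.7 and 12.3 in shWDR5.

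Both receptors rose, by less than most of the binding proteins. IGF1R was at 8.93, 9.19 and 8.85 RPKM in shLuc and at 12.7, 11.8 and 12.6 RPKM in shWDR5 (1.38-fold, log2FC 0.46, SE 0.05, interval 0.34 to 0.58, adjusted p = 4.02e-05). IGF2R was at 44.3, 44.2 and 45.5 RPKM in shLuc and at 54.9, 51.6 and 52.5 RPKM in shWDR5 (1.19-fold, log2FC 0.25, SE 0.05, interval 0.14 to 0.35, adjusted p = 0.00165). IGF2R remained the more abundant receptor mRNA per length, but its ratio to IGF1R was lower in every silenced library, at 4.33, 4.35 and 4.17, than in any control library, at 4.95, 4.82 and 5.15. The insulin receptor INSR, which pairs with IGF1R in hybrid receptors, fell from 2.18 ± 0.0629 to 1.67 ± 0.104 RPKM (n = 3 each; log2FC −0.38, SE 0.07, adjusted p = 0.0011). The IGF1R to INSR ratio was accordingly 4.22, 4.10 and 4.07 in shLuc and 7.19, 6.97 and 8.06 in shWDR5. Of the 3 ratios compared, IGF2R to IGF1R gave a two-sided exact permutation p of 0.1, the smallest possible. For IGFBP3 to IGFBP2 and for IGF1R to INSR no p is given. In each of these pairs the first gene rose and the second fell without overlap, so that the ratio had to separate the groups.

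The 8 genes lie on 7 chromosomes (hg19 coordinates as deposited). IGFBP2 (chr2:217498127-217529158, plus strand) and IGFBP5 (chr2:217536828-217560272, minus strand) face each other tail to tail with 7669 bases between them, and they changed in opposite directions. IGFBP3 (chr7:45951844-45960871) lies 18576 bases from IGFBP1, whose reads numbered 1, 0 and 2 in shLuc and 3, 7 and 5 in shWDR5, too few to be tested. IGFBP4 (chr17:38599676-38613982) lies between TOP2A, the topoisomerase of dividing cells, and TNS4, a focal adhesion protein. TOP2A fell (log2FC −0.89, SE 0.05, adjusted p = 6.18e-07) and TNS4 rose (log2FC 0.56, SE 0.07, adjusted p = 6.61e-05). IGFBP6 (chr12:53491436-53496128) lies beside SPRYD3, which rose (log2FC 0.46, SE 0.06, adjusted p = 0.000155), and SOAT2, which had too few reads to be tested. IGFBP7 (chr4:57897237-57976551) lies beside NOA1, which was called lower with an adjusted p of 0.0377 (log2FC −0.16, SE 0.06) and lost that call in 8 of 12 alternatives. IGF1R (chr15:99191768-99507759) has neighbours with too few reads for a test. IGF2R (chr6:160390131-160527583) has MAS1, with no read in any library, on the side of lower coordinates.

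Some exons of these genes are shared with genes of the opposite strand, and the library kit as described does not mark strand. IGFBP7 shares 92 of its 1317 exonic bases with POLR2B and 94 with IGFBP7-AS1, and IGF1R shares 1137 of 12235 with IRAIN. IGFBP7-AS1 had a mean of 3 reads in shLuc and 5 in shWDR5, and IRAIN 17 and 30, beside at least 893 for IGFBP7 and 4359 for IGF1R in any library. POLR2B, an RNA polymerase subunit, is abundant, with a mean of 6705 reads in shLuc and 8285 in shWDR5, and the part of reads from the 92 shared bases in the IGFBP7 count was not tested.

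The 8 lists of other IGF pathway genes, 97 genes in all, gave 82 genes with enough reads for a test, of which 31 were higher and 23 lower in shWDR5. The 65.9% called compares with 56.5% of all genes tested, and the median log2FC over the lists was 0.08. Of the 31, PAPPA2, SPP1, ESM1 and WISP1 reached the filter's cutoff in all libraries of shWDR5 but not of shLuc, so that they were tested only through the group in which they were high, and their reads are given with no test. Without such genes 27 of 78 were higher and 23 lower, or 64.1% called beside 56.6% of all genes, with a median of 0.05. Up to 4 called genes of each list, those with the largest changes, are named.

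The ligands were nearly absent. IGF1 had 15 to 28 reads in shLuc and 32 or 33 in shWDR5 (log2FC 0.39, SE 0.23, adjusted p = 0.173). IGF2 and INS had no read in any library, but 4886 of the 6420 exonic bases of IGF2 are shared with the read-through gene INS-IGF2, also at 0, and the handling of reads that fall on both was not stated, so that only the other 1534 bases bear on its absence. Of the 8 genes in this list INSR was the one called and IGF1 the other one tested. IGFALS, the acid-labile subunit that joins IGFBP3 in blood, had at most 10 reads in a library.

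Among 13 receptor adaptors, 5 rose, 3 fell and 4 of the 12 tested were not called. GRB10 and GRB14, which bind and restrain the activated insulin and IGF receptors, rose together: GRB10 went from 2.69 ± 0.122 to 5.72 ± 0.42 RPKM (log2FC 1.09, SE 0.08, adjusted p = 1.54e-06) and GRB14 from 1.92 ± 0.0741 to 3.89 ± 0.256 RPKM (log2FC 1.02, SE 0.08, adjusted p = 3.82e-06; n = 3 each). GRB7, of the same family and known as an ERBB2 adaptor, fell from 25.3 ± 3.77 to 15.5 ± 1.03 RPKM (log2FC −0.71, SE 0.10, adjusted p = 0.000182). GAB1, a docking protein, fell as well (log2FC −0.45, SE 0.11, adjusted p = 0.00609). The main docking proteins of the receptor, also named after their values were seen, were not called, with IRS1 at a log2FC of −0.01 (SE 0.09, adjusted p = 0.908) and IRS2 at −0.13 (SE 0.07, adjusted p = 0.158).

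In the PI3K-AKT-FOXO arm 4 of 20 genes rose and 7 fell, and the median log2FC was −0.04. The catalytic subunit PIK3CB (log2FC −0.60, SE 0.06, adjusted p = 2.39e-05) and the mTORC1 activator RHEB (−0.55, SE 0.08, adjusted p = 0.000199) fell, while the regulatory subunit PIK3R2 rose (0.67, SE 0.05, adjusted p = 3.83e-06). Without shLuc replicate 2 the count of called genes in this list was 7 in place of 11.

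Proteases that cut IGFBPs, and the inhibitors of those proteases, held the largest changes of the lists: 5 of 12 tested were called higher and 4 lower, or 4 and 4 of 11 without PAPPA2. MMP9, which cuts IGFBP3, went from 2.59 ± 0.291 to 33.2 ± 6.89 RPKM (log2FC 3.68, SE 0.16, adjusted p = 1.19e-07), and MMP7, which also cuts IGFBPs, from 1.89 ± 0.232 to 15.2 ± 0.241 RPKM (log2FC 3.01, SE 0.10, adjusted p = 2.86e-08; n = 3 each). PAPPA2, which cuts IGFBP3 and IGFBP5, had 1, 2 and 3 reads in shLuc and 18, 32 and 15 in shWDR5. STC2, a secreted inhibitor of PAPPA, rose from 9.09 ± 0.455 to 30.2 ± 1.28 RPKM (log2FC 1.73, SE 0.06, adjusted p = 4.17e-08). PAPPA itself, which cuts IGFBP4 and was named after its values were seen, fell from 2.06 ± 0.0697 to 1.35 ± 0.0382 RPKM (log2FC −0.61, SE 0.07, adjusted p = 2.61e-05). STC1, of the same list and also named after its values were seen, was not called (log2FC 0.13, SE 0.08, adjusted p = 0.19). The transcripts of IGFBP4 and STC2 were thus higher and that of PAPPA lower, while the proteins were not measured.

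Of the cell-surface and intracellular partners of IGFBPs, 8 of 14 tested were called higher and 3 lower, or 7 and 3 of 13 without SPP1. SPP1 (osteopontin, which binds IGFBP5) had 9, 12 and 7 reads in shLuc and 88, 66 and 87 in shWDR5. LRP1, an endocytic receptor for IGFBP3, rose from 3.91 ± 0.0541 to 6.23 ± 0.394 RPKM (log2FC 0.67, SE 0.06, adjusted p = 7.57e-06), and the integrin subunit ITGAV from 44.5 ± 4.56 to 68.4 ± 7.43 RPKM (log2FC 0.62, SE 0.09, adjusted p = 0.000204; n = 3 each). KPNB1, the importin that carries IGFBP3 and IGFBP5 into the nucleus, fell from 144 ± 1.84 to 85.7 ± 3.25 RPKM (log2FC −0.74, SE 0.05, adjusted p = 1.24e-06).

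Of 12 genes of the mannose 6-phosphate route in which IGF2R works, 4 rose and 4 fell. SORT1, another lysosomal sorting receptor, fell (log2FC −0.76, SE 0.05, adjusted p = 1.28e-06), as did PLAUR, the urokinase receptor that binds IGF2R (−0.36, SE 0.09, adjusted p = 0.00575). The adaptor GGA1 (0.60, SE 0.07, adjusted p = 2.68e-05) and GNPTG, a subunit of the enzyme that makes the mannose 6-phosphate tag (0.45, SE 0.08, adjusted p = 0.00093), rose. Of the IGF2 mRNA-binding proteins IGF2BP2 rose slightly (0.18, SE 0.05, adjusted p = 0.01), IGF2BP3 was not called and IGF2BP1 had too few reads.

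Relatives that carry an IGFBP-type domain gave 4 higher and 2 lower calls among 9 tested, or 2 and 2 of 7 without ESM1 and WISP1, and the median log2FC went from 0.41 to −0.06 without them. CTGF, a matrix-associated growth regulator and known TGFβ target, went from 33.8 ± 2.00 to 92.9 ± 3.33 RPKM (log2FC 1.46, SE 0.06, adjusted p = 1.06e-07) and NOV, of the same CCN family, from 42, 30 and 31 reads to 121, 156 and 116 (log2FC 1.72, SE 0.13, adjusted p = 2.63e-06; n = 3 each). ESM1 had 2, 2 and 4 reads in shLuc and 18, 25 and 19 in shWDR5, and WISP1 had 5, 2 and 2 against 12, 21 and 15. HTRA1, also counted among the proteases, and CRIM1 were the 2 that fell, and they are named here after their values were seen.

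For each of the 8 genes, the 3 genes with the nearest profile were found by the root-mean-square difference of log2(CPM + 0.5), centred over the 6 libraries. With 2 groups this measure mostly finds genes that changed by the same amount, and the pseudocount narrows the profile of rare transcripts such as IGFBP5. The nearest to IGFBP3 was CTGF, at a difference of 0.0327 (log2 units), followed by ATP10B and AKR1C2. GRB10 was the nearest both to IGFBP4 (0.0394) and to IGFBP5 (0.0314), followed by TMEM132A and GDPD5 for IGFBP4 and by MIB2 and JAG1 for IGFBP5. The fitted changes of IGFBP5 and GRB10 were less alike than their profiles, at log2FC 1.27 and 1.09. The nearest to IGFBP2 was WDR34 (0.0113), followed by HAUS4 and RTN4IP1. For the smaller changes the nearest genes were NPPA-AS1 to IGFBP6 (0.0126), SPNS2 to IGFBP7 (0.0201), YTHDF1 to IGF1R (0.0173) and TOB2 to IGF2R (0.0111). Some of the named genes, of low level, changed more in the fit than the IGF gene they were nearest to. ATP10B had a log2FC of 1.78 (IGFBP3 1.46), NPPA-AS1 of 0.54 (IGFBP6 0.33) and SPNS2 of 0.76 (IGFBP7 0.64).

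**Figure D4:**
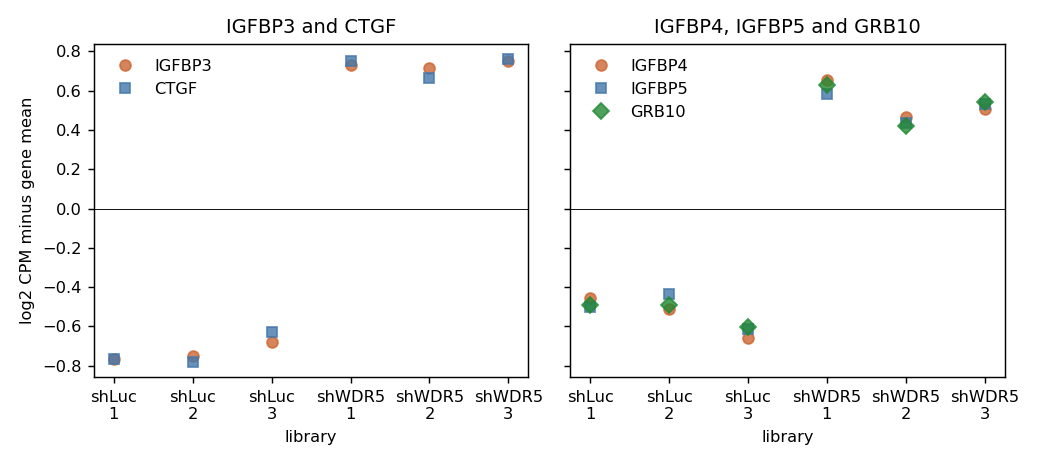
Centred log2 CPM (y axis, log2 CPM minus the gene's mean over the 6 libraries) in each library (x axis, group and replicate number) for IGFBP3 with CTGF (left) and for IGFBP4 and IGFBP5 with GRB10 (right). In each panel the markers of the different genes nearly coincide, below 0 in the 3 shLuc libraries and above 0 in the 3 shWDR5 libraries.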

How the data were processed

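RNA-seq counts were analysed for 3 shLuc and 3 shWDR5 libraries of MCF10DCIS cells, assigned to groups by their titles. The deposited table holds raw read counts per gene, which the authors made with TopHat2 2.1.0 and featureCounts on hg19 per the labels and the submitters' processing notes; the annotation release and the treatment of strand and of reads on several genes are not given in the sources used here. A second deposited table holds the authors' edgeR fold changes and p-values and was not used. Counts were fitted across all genes with edgeR 4.0.16 (R 4.3.3): filterByExpr (minimum count 10), TMM scaling, quasi-likelihood F test on group, Benjamini-Hochberg adjustment over 16117 genes, calls at 0.05. SEs are the log2FC divided by the square root of F. RPKM values use TMM-scaled totals and the deposited gene length. Alternatives were other scalings, no filter, DESeq2 1.42.0, limma-voom 3.58.1, the replicate number as a block, leaving out each library, and an absolute log2FC of at least 0.6 with more than 0.5 RPKM, thresholds taken from the study's xenograft comparisons. The scripts were tested on simulated data in which 200 of 15973 genes changed, equally up and down. That share is far below the 56.5% called here, so the simulation does not cover so broad a shift. Named genes are the 8 IGF genes, WDR5, up to 4 called genes per list, the 3 nearest profiles and the flanking genes, of which 2 are not reported here; the genes, lists and tests were chosen with earlier results of these data known. Counts limit precision least for IGF2R and most for IGFBP5.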

Additional observations from a re-analysis of the deposited data

How the results depend on the processing

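The direction and the call of each of the 8 IGF genes and of WDR5 were the same in all 12 alternatives (3 other scalings or filters, DESeq2, limma-voom, the replicate block, and each library left out). With library totals only, the median log2FC of all genes moved from −0.01 to −0.07 and the log2 ratio of the IGFBP pool from 0.98 to 0.92; leaving out single libraries gave 0.95 to 1.00 for the pool. With the fold and RPKM thresholds, 2962 genes in place of 9112 were called, since the thresholds are stricter. Of the IGF genes, 4 were called higher in place of 7, as IGFBP6, IGF1R and IGF2R fell short of the fold. The lists held 0 ligands and other receptors, 3 adaptors, 2 PI3K-AKT-FOXO genes and 4 proteases and inhibitors. They also held 6 partners, 2 mannose 6-phosphate genes, 3 domain relatives and 0 mRNA-binding proteins. The RPKM threshold had to be passed in at least 1 group. IGFBP5, the partner SPP1 and the domain relative NOV passed it in shWDR5 only, the group in which they were high. Their place in these counts is therefore no separate check on their rise. In the PI3K-AKT-FOXO list, 7 to 11 genes were called when single libraries were left out; the cause was not tested. The replicate numbers are shared between groups but nothing in the labels pairs them, and same-numbered libraries deviated together unevenly (r = 0.56, 0.06 and 0.20 across 16117 genes, which are not independent replicates). Replicate 2 of shLuc and replicates 2 and 3 of shWDR5 did not correlate best with their own number. With the replicate block 10412 genes were called and no call among the 8 IGF genes changed. Precision is limited most for genes with few reads: IGFBP5 rests on 53 to 185 reads a library, and IGF1, IGF2 and IGFBP1 on fewer.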

Other observations

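The IGF-like (IGFL) genes, small secreted proteins named for their likeness to IGFs, were looked at after the table had been seen and are in none of the lists. They lie in a cluster on chromosome 19 (hg19 19:46543006-46734500). IGFL1, expressed in skin, was at 1.71, 1.11 and 1.87 RPKM in shLuc and at 7.77, 6.20 and 7.91 RPKM in shWDR5 (log2FC 2.20, SE 0.17, adjusted p = 2.99e-06 in edgeR's quasi-likelihood test), a rise of 4.61-fold that was larger than that of any of the 8 IGF genes. IGFL4 had 9, 4 and 8 reads in shLuc and 35, 33 and 35 in shWDR5. It reached the low-count filter only in shWDR5, so no test is given. IGFL3 had 2, 3 and 2 reads against 9, 9 and 11, and IGFL2 at most 3 reads in a library; both had too few for a test. IGFLR1, the receptor described for IGFL1, lies elsewhere on the same chromosome and went from 1.27, 1.36 and 1.53 RPKM to 0.866, 0.779 and 0.940 RPKM (log2FC −0.69, SE 0.15, adjusted p = 0.00273). IGFL genes are similar in sequence, and whether reads were split between them was not tested.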
